A study of Apis mellifera with 18 samples.

Results

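The otoferlin-like gene (GB53517) and the golgin A6-like 22 gene (GB50973) are 2 of the 15314 gene models counted in the brains of honeybee queens, and both names are best matches to database proteins. They were chosen by their measured values, since the study listed them among 37 genes whose brain expression differed from control queens in all 4 of its comparisons of inseminated with control queens, computed from these same counts. The inseminated against control differences of both genes are therefore a description here, without a test. What the choice did not use was tested, namely seminal fluid against semen and one experiment against the other. In the study's annotation the otoferlin-like protein carries C2 domains, ferlin-family domains and a transmembrane stretch. The golgin A6-like 22 protein carries coiled coils and a PDZ domain, with no domain specific to the Golgi listed, and both proteins were annotated as integral components of membrane.

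Ferlins are large membrane-anchored proteins whose C2 domains bind calcium and phospholipids, and they act where vesicles fuse with a target membrane. In mammals, otoferlin is required for the calcium-triggered release of transmitter from the inner hair cells of the ear. Golgins are long coiled-coil proteins that tether vesicles at the Golgi, whereas a PDZ domain binds the tails of membrane proteins and is common in scaffolds of signalling complexes, among them the phototransduction complex of the fly eye.

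The series asked what semen, and seminal fluid alone, do to gene expression in the queen brain. All queens were Apis mellifera ligustica bred from larvae of a single colony and kept from mating flights. They were caged 4 days after hatching and exposed to CO2 on that day and again at insemination the next day. They were recollected 24 h later and briefly narcotised with CO2 once more before their heads were frozen. The brains were dissected with the optic lobes attached. Each library was a pool of 3 brains, and the pools were separate biological replicates (A, B and C) of 6 groups. Experiment 1 held queens given 6 µl of fresh semen pooled from several drones, queens given 6 µl of thawed seminal fluid without sperm, and mock-inseminated queens that went through the procedure with no fluid injected. Experiment 2 held queens given 6 µl of semen, 6 µl of seminal fluid or 6 µl of Hayes saline. The control treatment and the experiment therefore changed together, and for the controls their parts cannot be told apart.

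The 18 libraries held 26636844 to 51745752 counts assigned to genes, which made up 68.8% to 72.1% of all counts including unassigned ones. The experiments differed as libraries: the share of counts outside annotated genes was 16.6% to 18.1% in Experiment 1 and 18.1% to 20.7% in Experiment 2, and the TMM scaling factors, which correct for a few genes taking up many counts, were 0.703 to 0.909 and 1.11 to 1.30, without overlap. In Experiment 2 the library of seminal fluid replicate C stood apart from its group. The most abundant gene, GB49544, took 8.90% of its counts against 0.840% and 0.949% in replicates B and A. Levels are given as normalised CPM, the count relative to the library total after TMM scaling over all 18 libraries. No gene length was used, so the level of one gene is not compared with that of the other.

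Both genes were well measured in every library. The otoferlin-like gene had 2107 to 15360 counts, and its mean of 168.1 normalised CPM was above 91.2% of the 11652 genes detected in both experiments. The golgin A6-like 22 gene had 789 to 3524 counts and a mean of 53.5 normalised CPM, above 74.5% of those genes. No gene length entered these ranks, so they order genes by counts and not by number of transcripts. Counting error was at most 2.18% of the otoferlin-like count and 3.56% of the golgin A6-like 22 count, less than the spread between pools. Between pools of the same group the SD of log2 CPM was 0.16 for each gene, against a median of 0.19 over all genes.

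**Figure D1:**
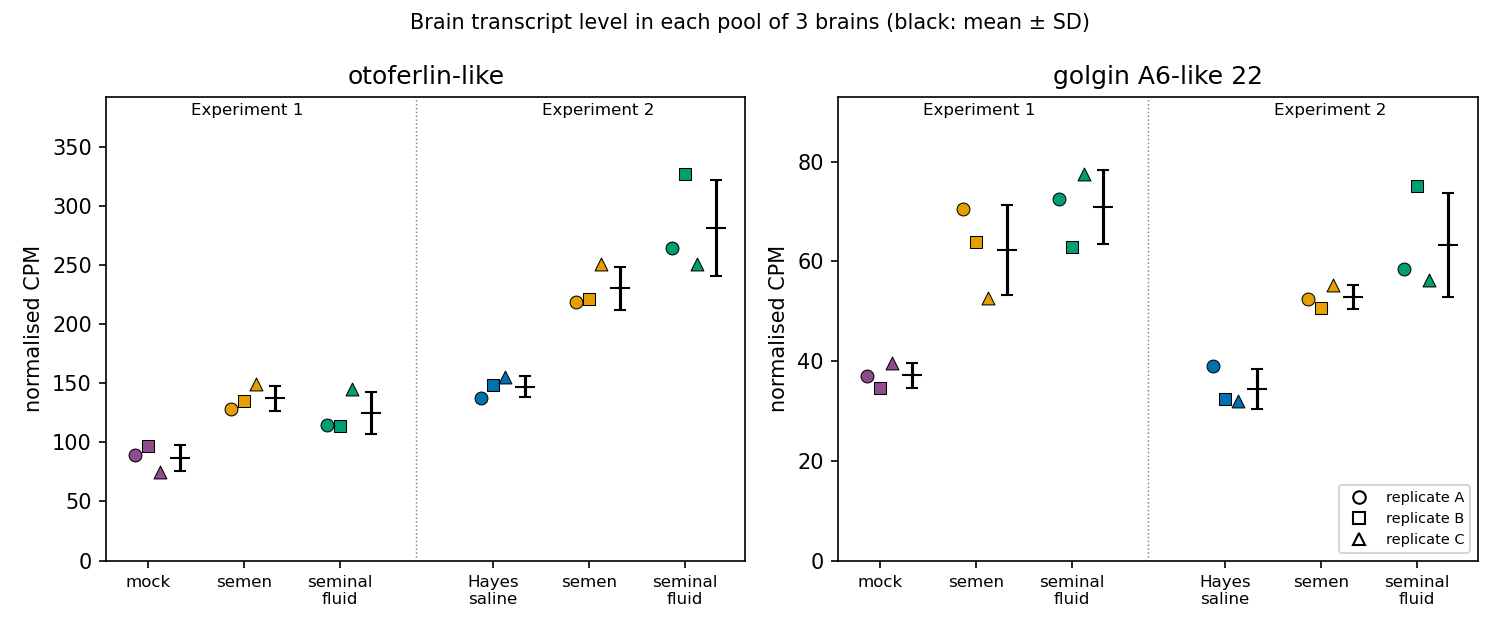
Normalised CPM (y axis, linear from 0) of the otoferlin-like gene (left) and the golgin A6-like 22 gene (right) in each pool of 3 brains, by group and experiment, with the mean ± SD of the 3 pools in black. All semen and seminal fluid pools lie above the control pools of their own experiment for both genes, and the otoferlin-like points of Experiment 2 lie above those of Experiment 1 for each treatment.

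The otoferlin-like gene had its lowest levels in mock-inseminated queens of Experiment 1, at 89.1, 96.8 and 74.7 normalised CPM in replicates A, B and C (86.9 ± 11.2, SD, n = 3). Semen queens of that experiment had 128.1, 135.0 and 149.3 (137.5 ± 10.8), and seminal fluid queens had 114.7, 114.3 and 145.6 (124.9 ± 17.9). Every inseminated pool was thus above every mock pool, the closest being seminal fluid replicate B and mock replicate B. On the log2 scale the difference from mock was 0.66 for semen (SE 0.14, 1.58-fold) and 0.53 for seminal fluid (SE 0.14, 1.45-fold). In bulk tissue a higher level cannot be told apart from a larger share of the cells that express the gene, here and in what follows.

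In Experiment 2 the otoferlin-like level of Hayes saline queens was 137.4, 149.0 and 155.5 normalised CPM (147.3 ± 9.17, SD, n = 3). Semen queens had 219.1, 221.2 and 251.3 (230.5 ± 18.04), and seminal fluid queens had 265.0, 327.6 and 251.3 (281.3 ± 40.6). Again no inseminated pool reached down to a control pool, and seminal fluid replicate B was the highest of all 18. The log2 difference from Hayes saline was 0.66 for semen (SE 0.11, 1.58-fold) and 0.93 for seminal fluid (SE 0.11, 1.90-fold).

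For the golgin A6-like 22 gene the mock-inseminated queens had 37.0, 34.7 and 39.6 normalised CPM (37.1 ± 2.47, SD, n = 3). Semen queens of Experiment 1 had 70.4, 63.8 and 52.7 (62.3 ± 8.97), and seminal fluid queens had 72.4, 62.8 and 77.5 (70.9 ± 7.48). Semen replicate C was the lowest inseminated pool and still stood above the highest mock pool. The log2 difference from mock was 0.74 for semen (SE 0.12, 1.67-fold) and 0.94 for seminal fluid (SE 0.13, 1.92-fold).

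Hayes saline queens of Experiment 2 had golgin A6-like 22 levels of 39.1, 32.3 and 32.0 normalised CPM (34.4 ± 4.02, SD, n = 3), which overlapped those of the mock queens. Semen queens had 52.4, 50.6 and 55.3 (52.8 ± 2.398), and seminal fluid queens had 58.4, 75.2 and 56.2 (63.2 ± 10.4). The control and inseminated pools did not overlap, and seminal fluid replicate B was the highest pool here too. The log2 difference from Hayes saline was 0.63 for semen (SE 0.13, 1.55-fold) and 0.87 for seminal fluid (SE 0.13, 1.83-fold).

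Both genes therefore had all 3 inseminated pools above all 3 control pools in each of the 4 comparisons that chose them. Among all genes tested that was so for 6.5% and 7.42% of genes for semen and seminal fluid against mock, and for 6.71% and 6.92% for semen and seminal fluid against Hayes saline. In both experiments together, all 6 inseminated pools lay above all 3 control pools for 80 of 11652 genes, or 0.687%, and these include both genes. Since that separation is close to the criterion by which the genes were listed, nothing further is read from it. The median log2 difference over the 37 listed genes was 0.74, 0.75, 0.73 and 0.81 in the same order of comparisons. Without seminal fluid replicate C of Experiment 2, the difference between seminal fluid and Hayes saline was 1.00 for the otoferlin-like gene and 0.95 for the golgin A6-like 22 gene, and without replicate B it was 0.80 and 0.73.

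Seminal fluid was then compared with semen, which contains both seminal fluid and sperm. The fluids also differed in handling and donors. Semen was used fresh, whereas seminal fluid was centrifuged, frozen and drawn from larger pools of drones. The part of sperm in a difference therefore cannot be told apart from these. No difference passed the threshold, an adjusted p under 0.1 in edgeR's quasi-likelihood test. In Experiment 1, where 0% of 11761 genes passed (680 had an unadjusted p under 0.05, and DESeq2 called 1 gene), the otoferlin-like gene was lower with seminal fluid by a log2 difference of -0.12 (SE 0.14, 95% interval -0.42 to 0.18, edgeR adjusted p = 0.960). The golgin A6-like 22 gene differed by 0.20 (SE 0.12, interval -0.07 to 0.47, edgeR adjusted p = 0.894). The pools overlapped for both genes, with 2 of 9 pairings of a seminal fluid and a semen pool higher for the former and 7 of 9 for the latter.

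In Experiment 2 the seminal fluid pools were above the semen pools in 9 of 9 pairings for both genes, a separation that 17.5% of all genes also showed and that for the otoferlin-like gene rests on pools that meet at 251.3 normalised CPM. The otoferlin-like gene was higher with seminal fluid by 0.27 on the log2 scale (SE 0.11, 95% interval 0.02 to 0.51), with an unadjusted p of 0.0369 and an adjusted p of 0.247 in edgeR. The golgin A6-like 22 gene was higher by 0.24 (SE 0.12, interval -0.04 to 0.52, edgeR adjusted p = 0.323). Only 0.0084% of genes passed in this comparison, a single gene, against 831 genes with DESeq2, which called neither of these. Seminal fluid replicate B carried much of both differences, which were 0.14 and 0.10 without it. Without replicate C, the pool that stood apart, they were 0.34 and 0.32 (edgeR adjusted p = 0.283 for each). Deviations of the same-letter pools of these 2 groups correlated only weakly, at 0.103 to 0.123 in the 3 pairs. With the replicate letter as a block the differences were 0.26 (edgeR adjusted p = 0.275) and 0.23 (edgeR adjusted p = 0.387), with 4 genes called.

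The seminal fluid against semen difference of the otoferlin-like gene was thus below 0 in Experiment 1 and above 0 in Experiment 2. The change between experiments was 0.43 on the log2 scale (SE 0.18, 95% interval 0.05 to 0.80), with an unadjusted p of 0.0295 and an adjusted p of 0.299 in edgeR's interaction test over all 18 libraries, and it was 0.26 (edgeR adjusted p = 0.589) without Experiment 2 seminal fluid replicate B. For the golgin A6-like 22 gene it was 0.07 (SE 0.18, interval -0.31 to 0.46, edgeR adjusted p = 0.872). In this test 0% of 12052 genes passed, 1751 had an unadjusted p under 0.05 and DESeq2 called 318, with neither gene among them. As a description, the seminal fluid against control difference of the otoferlin-like gene was larger in Experiment 2 by 0.41 (SE 0.18), while its semen against control difference changed by -0.02 (SE 0.18).

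**Figure D2:**
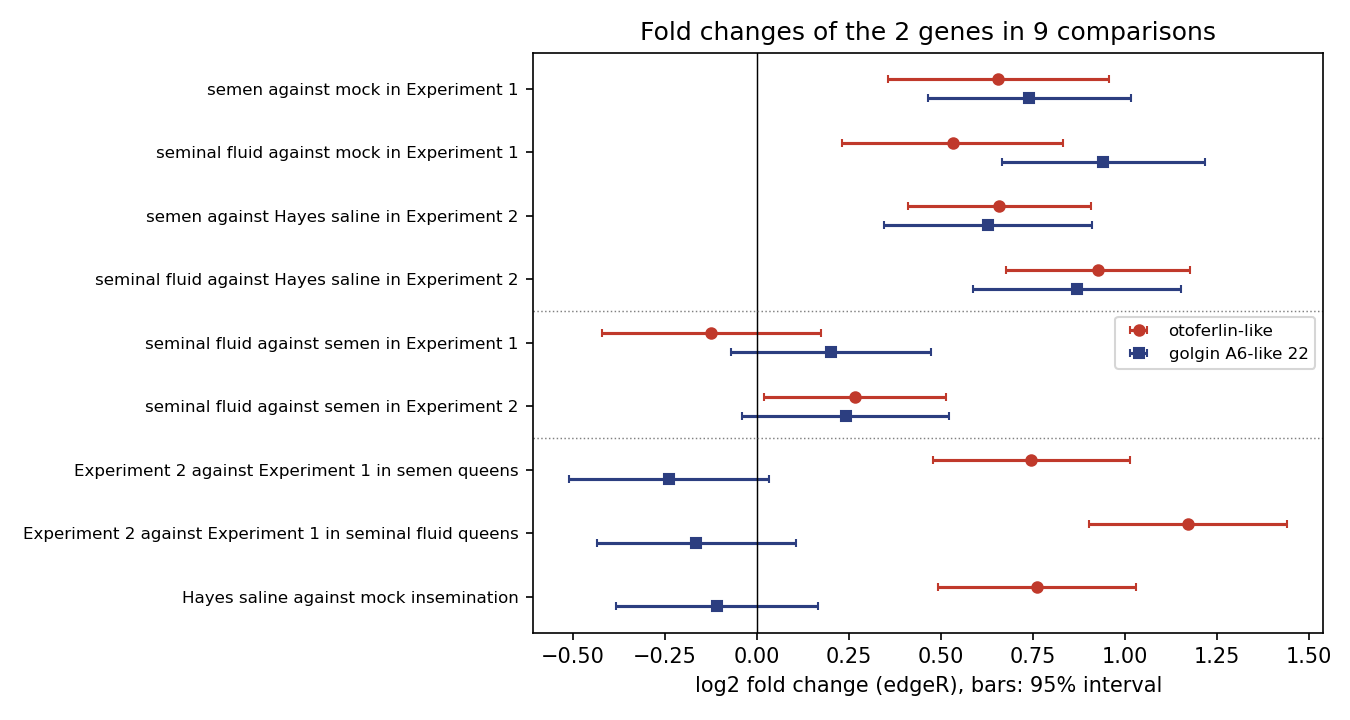
Log2 fold change (x axis) of the otoferlin-like gene (red circles) and the golgin A6-like 22 gene (blue squares) in 9 comparisons, with 95% intervals from edgeR. The first 4 comparisons chose the genes and are a description. In the last 3, between experiments, the otoferlin-like values of 0.75, 1.17 and 0.76 lie apart from the golgin A6-like 22 values of -0.24, -0.16 and -0.11.

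The otoferlin-like gene was higher in Experiment 2 in all 3 kinds of queen, by 0.75 on the log2 scale in semen queens (SE 0.13, 95% interval 0.48 to 1.01, 1.68-fold, edgeR adjusted p = 0.000426), where 49.7% of 12052 genes were called and 24.7% were called higher. In seminal fluid queens it was higher by 1.17 (SE 0.13, interval 0.90 to 1.44, 2.25-fold, edgeR adjusted p = 3.55e-06), where 64.1% of genes were called and 34.1% were called higher. In Hayes saline against mock-inseminated queens it was higher by 0.76 (SE 0.13, interval 0.49 to 1.03, 1.70-fold, edgeR adjusted p = 0.000302), where 50.5% were called and 26.5% were called higher. Such calls were thus common, and a call alone does not set the otoferlin-like gene apart. With its sign kept, the otoferlin-like difference was above that of 96.8%, 94.8% and 94.2% of genes in the 3 comparisons. It was also above those of all 36 other listed genes in each. By size in either direction it was above 82.76%, 85.04% and 81.02% of genes in the same order, so many genes changed more. In each comparison 9 of 9 pairings of pools had the Experiment 2 pool higher, as did 26.7%, 34.8% and 26.5% of genes.

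The golgin A6-like 22 gene did not pass the test in any of the 3. Its log2 difference between Experiment 2 and Experiment 1 was -0.24 in semen queens (SE 0.13, 95% interval -0.51 to 0.03, edgeR adjusted p = 0.145) and -0.16 in seminal fluid queens (SE 0.13, interval -0.44 to 0.11, edgeR adjusted p = 0.283). Between Hayes saline and mock queens it was -0.11 (SE 0.13, interval -0.38 to 0.17, edgeR adjusted p = 0.526). It is therefore not shown to differ between experiments, and a fall of up to the lower bounds is not excluded by the intervals. The semen value passed without Experiment 1 semen replicate C (-0.35, edgeR adjusted p = 0.0439) and the seminal fluid value without Experiment 2 seminal fluid replicate B (-0.34, edgeR adjusted p = 0.0366).

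Because the scaling factors of the 2 experiments did not overlap, the direction of the golgin A6-like 22 gene depended on the scaling. With library totals alone its differences became 0.28, 0.46 and 0.39 (edgeR adjusted p = 0.0983, 0.00899 and 0.0268), while the median over all genes moved from 0.01, 0.03 and 0.04 to 0.52, 0.64 and 0.54. Relative to that median it lay at -0.24, -0.18 and -0.15, against -0.25, -0.19 and -0.15 under TMM. The otoferlin-like gene kept its direction, at 1.25, 1.79 and 1.26 with library totals alone, and relative to the median at 0.73, 1.15 and 0.72 against 0.74, 1.14 and 0.72. Under library totals 87.0%, 84.8% and 86.7% of the calls were higher in Experiment 2, against 49.7%, 53.2% and 52.5% under TMM.

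The ratio of the 2 counts within a library does not depend on any scaling, and it was computed after the levels had been seen, so it is given as a description with no test. It was 2.41, 2.79 and 1.89 in mock pools A, B and C, 1.82, 2.11 and 2.83 in semen pools and 1.59, 1.82 and 1.88 in seminal fluid pools of Experiment 1. In Experiment 2 it was 3.52, 4.62 and 4.87 in Hayes saline pools, 4.18, 4.37 and 4.54 in semen pools and 4.54, 4.36 and 4.47 in seminal fluid pools. All 9 libraries of Experiment 2 were above all 9 of Experiment 1, by 1.07 on the log2 scale or 2.09-fold. A ratio shows unequal change and not which of the genes changed. The share of other gene pairs whose ratio splits in this way was not computed. Between experiments 49.7%, 64.1% and 50.5% of single genes were called in semen, seminal fluid and control queens. The split, here and within each kind of queen, is therefore not read as particular to these 2 genes.

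Within a kind of queen the ratio differed between experiments by 0.98 for semen, 1.34 for seminal fluid and 0.88 for the controls on the log2 scale, without overlap of the pools. Between seminal fluid and semen the log2 ratio differed by -0.34 in Experiment 1 and by 0.03 in Experiment 2.

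**Figure D3:**
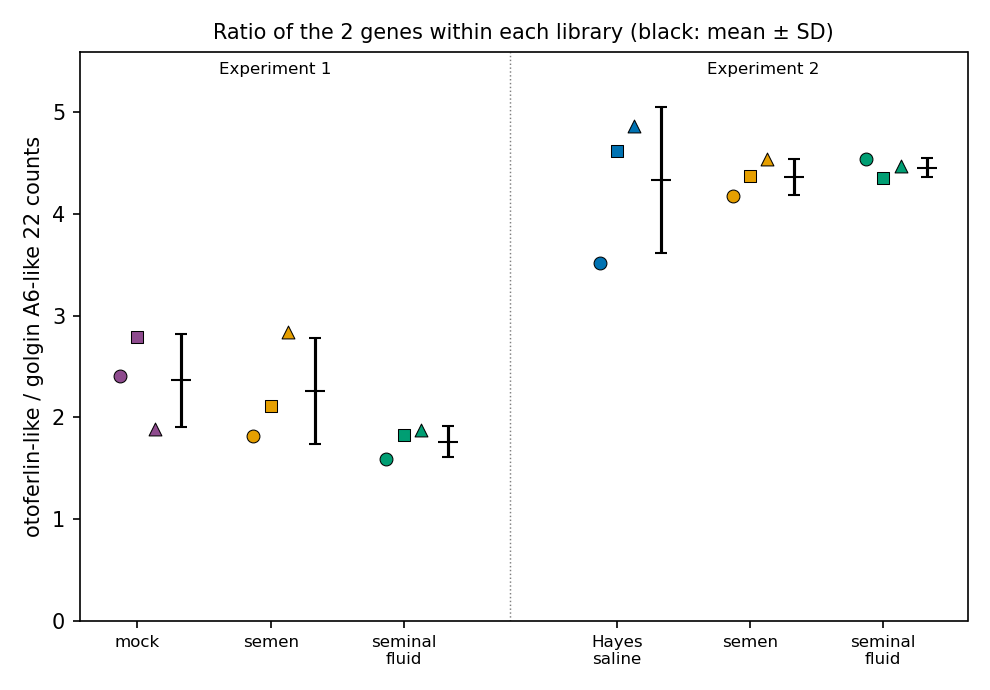
Count of the otoferlin-like gene divided by the count of the golgin A6-like 22 gene in each library (y axis, no unit), by group, with the mean ± SD of the 3 pools in black. The Experiment 1 libraries lie between 1.59 and 2.83 and the Experiment 2 libraries between 3.52 and 4.87.

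Ordered by group mean, the otoferlin-like level ran from mock through Experiment 1 seminal fluid, Experiment 1 semen, Hayes saline and Experiment 2 semen to Experiment 2 seminal fluid. Neighbours overlapped between seminal fluid and semen of Experiment 1 and between the latter and Hayes saline, so the saline controls of Experiment 2 overlapped the inseminated queens of Experiment 1. The golgin A6-like 22 order ran from Hayes saline and mock through Experiment 2 semen, Experiment 1 semen and Experiment 2 seminal fluid to Experiment 1 seminal fluid. There the only neighbours that did not overlap were mock and Experiment 2 semen, which is the step from control to inseminated queens. That step is close to the criterion by which the gene was listed, so nothing is read from it.

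The pools of a group showed how far the genes varied together beyond the treatment. With the mean of each group subtracted, Pearson's r of their log2 CPM was 0.13 over 18 libraries, at -0.22 in the 9 of Experiment 1 and 0.54 in the 9 of Experiment 2. With the mean of each experiment subtracted instead, r was 0.85, which carries the step from control to inseminated queens that chose both genes. These values are a description, since the libraries share their groups and scaling.

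**Figure D4:**
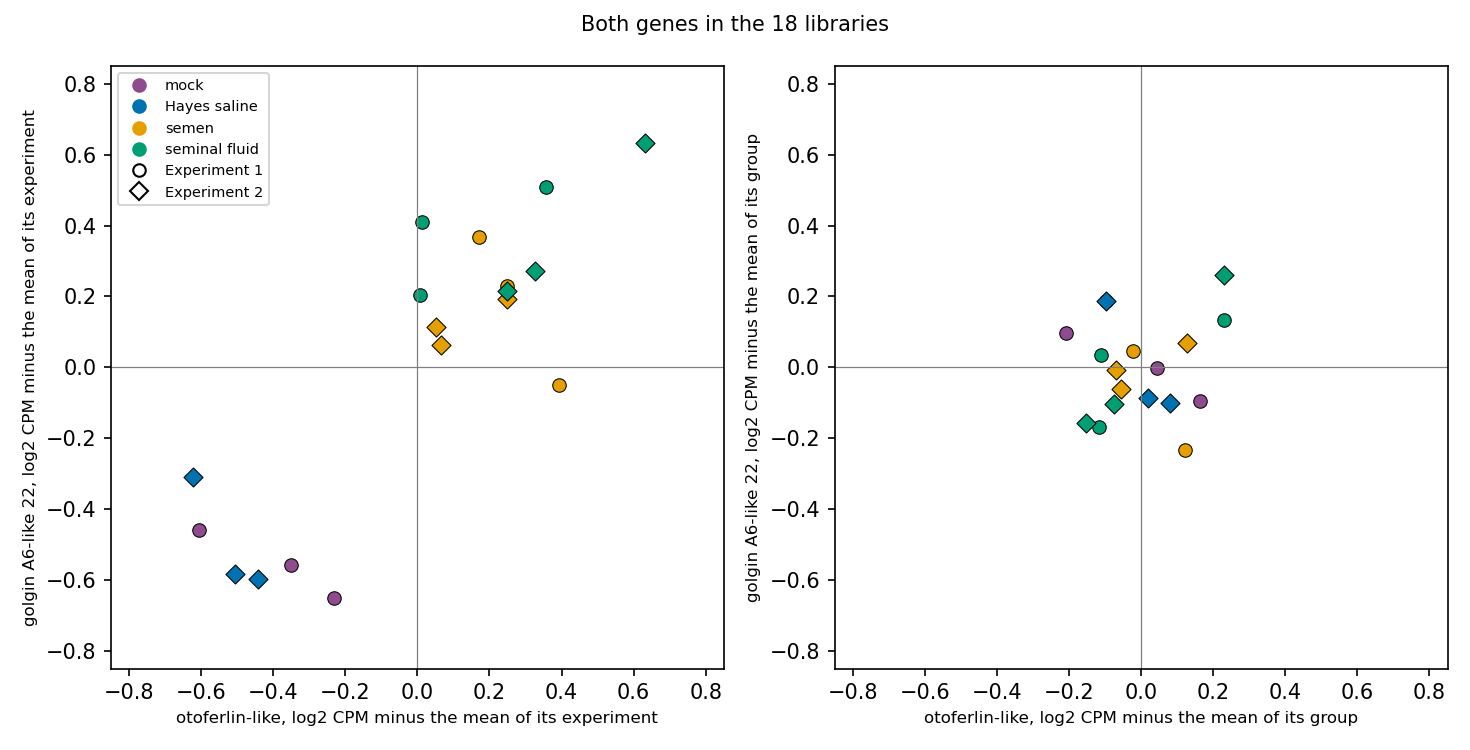
Log2 CPM of the golgin A6-like 22 gene (y axis) against the otoferlin-like gene (x axis) in the 18 libraries, after subtracting the mean of each experiment (left) or of each group (right). On the left the 6 control libraries sit at the lower left, and on the right r is 0.13.

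The genes whose levels were most like each of the pair were ranked by Pearson's r of log2 CPM over the 18 libraries, with the mean of each experiment subtracted, among 11651 other genes. Closest to the otoferlin-like gene was GB44216 (r = 0.98), which has no name in the sources, is not among the 37 listed genes and kept the likeness within groups (r = 0.90). Its normalised CPM was 14.7 in mock, 22.9 in semen and 20.3 in seminal fluid queens of Experiment 1, and 19.8 in Hayes saline, 32.6 in semen and 37.9 in seminal fluid queens of Experiment 2, the order of the otoferlin-like gene but for the place of Hayes saline. Next came the DNA-binding D-ETS-4 gene (GB50829, r = 0.96), the glutamyl aminopeptidase-like gene (GB42326, r = 0.95), the unnamed GB55903 (r = 0.95) and the gene of the uncharacterized protein LOC727647 (GB40426, r = 0.94). Within groups their r was 0.74, 0.71, 0.73 and 0.78 in the same order. D-ETS-4, an ETS-family transcription factor, had a lower mean in Experiment 2 than in Experiment 1 (3.21 against 4.73 normalised CPM), unlike the otoferlin-like gene (219.7 against 116.4). The means of the other 4 were higher in Experiment 2, by 1.56-fold for GB44216, 1.53-fold for GB40426, 1.45-fold for GB55903 and 1.37-fold for GB42326.

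Closest to the golgin A6-like 22 gene were the unnamed GB50362 (r = 0.94), the Hemicentin-1-like gene (GB44248, r = 0.94), norpA (GB42579, r = 0.92), the J domain-containing gene GB41376 (r = 0.91) and the GTP-binding REM 1-like gene (GB44018, r = 0.91). Hemicentins are extracellular matrix proteins, and norpA in the fly encodes the phospholipase C of phototransduction. norpA had means of 261.9, 386.9 and 403.2 normalised CPM in mock, semen and seminal fluid queens and 238.7, 337.9 and 336.5 in Hayes saline, semen and seminal fluid queens, so the highest group was Experiment 1 seminal fluid for both genes. Within groups the likeness to the golgin A6-like 22 gene fell to 0.64 for GB50362, 0.50 for Hemicentin-1-like, 0.19 for norpA, 0.37 for GB41376 and 0.10 for the GTP-binding REM 1-like gene. Of the other 36 listed genes, 21 were among the 50 genes most like the otoferlin-like gene and 29 among the 50 most like the golgin A6-like 22 gene, and all of these were listed on the same 4 comparisons.

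The photoreceptor genes were not uniform across groups. The summed level of the 5 photoreceptor genes that could be matched (norpA, chaoptin, ninaC, TRP and inaD) was 374.7 to 428.7 normalised CPM in mock, 559.1 to 573.0 in semen and 533.0 to 595.4 in seminal fluid queens of Experiment 1. In Experiment 2 it was 361.0 to 455.3 in Hayes saline, 485.2 to 505.6 in semen and 523.2 to 564.4 in seminal fluid queens, and none of the 5 was at 0, the lowest being chaoptin at 1.35. The sum was mostly norpA. Without norpA it was 115.0 to 165.2 in mock, 158.7 to 192.5 in semen and 141.4 to 184.4 in seminal fluid queens of Experiment 1, and 141.8 to 205.5 in Hayes saline, 156.9 to 160.9 in semen and 186.0 to 230.1 in seminal fluid queens of Experiment 2, so the inseminated pools overlapped the controls. In Experiment 2 mean ninaC (12.3 against 15.8), TRP (11.2 against 15.0) and inaD (129.7 against 140.1 normalised CPM) were lower in semen than Hayes saline queens. In seminal fluid queens of that experiment the same genes were above Hayes saline, at 20.1, 16.2 and 170.7. In Experiment 1 they were higher in semen (27.4, 27.6 and 112.9) than in mock queens (19.9, 23.3 and 99.2). With seminal fluid in Experiment 1, ninaC (22.8) and inaD (108.6) were above mock and TRP (22.9) was not. Chaoptin, which adds little to either sum, had means of 3.35 in mock, 10.2 in semen and 9.53 in seminal fluid queens of Experiment 1. In Experiment 2 its means were 1.47 in Hayes saline, 5.45 in semen and 3.64 in seminal fluid queens. Mean chaoptin was thus above its control in every inseminated group. Between experiments the sum with norpA overlapped in control and seminal fluid queens and was higher in Experiment 1 in semen queens. Without norpA it was higher in Experiment 2 in seminal fluid queens, without overlap. The mean of inaD was higher in Experiment 2 in all 3 kinds of queen, at 140.1 against 99.2 in controls, 129.7 against 112.9 in semen and 170.7 against 108.6 in seminal fluid queens. The study listed norpA and chaoptin by the same criterion as the pair, and the part of photoreceptor RNA in the levels of either gene was not tested. Other genes of exocytosis and of the Golgi, and markers of neurons, glia, fat body, gland and muscle, were not analysed here, because their names could not be paired with the gene models.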

How the data were processed

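Brain RNA was sequenced in 18 libraries of 3 pooled brains with the TruSeq Stranded mRNA kit (single-end reads of 120 bp over 4 lanes). The authors trimmed reads with Trimmomatic, removed ribosomal reads with SortMeRNA, aligned with STAR 2.4.2a to honeybee assembly 4.5 and made the deposited raw counts per gene model with htseq-count. The strand setting of the counting is not given in the sources used here, so reads of overlapping or antisense genes may be included. Rows of unassigned reads were left out.

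Counts were tested with edgeR 4.0.16 in R 4.3.3 (TMM, glmQLFit and glmQLFTest, two-sided, Benjamini-Hochberg adjustment over every gene reaching 10 counts in 3 or more libraries, threshold 0.1). The 9 libraries of an experiment were fitted for comparisons within it and all 18 for those between experiments. The fit gave the standard errors and 95% intervals. A prior count of 2 was added for log2 CPM. The edgeR step was tested on simulated counts with known changes. Alternatives were DESeq2 1.42.0, other scalings and filters, other libraries in the fit, a replicate block and each library left out. The fit without the most abundant gene, library totals alone and the ratio of the genes were added after seeing the data.

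The genes, the lists and the tests were chosen with earlier results of these data known. Named besides the pair are the 5 genes most like each by the stated correlation, among genes passing the filter in each experiment. The replicate letters were checked as pairs: deviations from group means correlated at -0.218 to 0.123 over 18 same-letter pairs, with 4 over 0.1. Every pair was over 0.1 only for semen with seminal fluid in Experiment 2, where the value with a replicate block is given too, and elsewhere the letters were not treated as pairs. The block was fitted over the 9 libraries of the experiment. No 2 libraries of a group were near-identical (lowest chi-square per gene 17.8).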

Additional observations from a re-analysis of the deposited data

How the results depend on the processing

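Of 192 recomputed values of the 12 tested results, 184 kept direction and side of the threshold. Of 120 of the 8 differences from controls, which have no test, 119 moved by less than the spread between replicates. That spread was the SD of log2 CPM within the 2 groups compared, from library totals without TMM scaling. Library totals alone turned the golgin A6-like 22 difference between experiments from -0.24, -0.16 and -0.11 to 0.28, 0.46 and 0.39 in semen, seminal fluid and control queens. Leaving out 1 library at a time, those differences ranged from -0.35 to -0.14, from -0.34 to -0.10 and from -0.23 to -0.06, with the semen value passing without Experiment 1 semen replicate C and the seminal fluid value without Experiment 2 seminal fluid replicate B. The change of its seminal fluid against semen difference between experiments ranged from -0.11 to 0.18, and was -0.02, -0.01 and -0.11 without Experiment 1 semen replicate A, Experiment 1 seminal fluid replicate B and Experiment 2 seminal fluid replicate B. Its semen against Hayes saline difference ranged from 0.57 to 0.73, the highest without Hayes saline replicate A. The cause was not tested. For the otoferlin-like gene the differences between experiments ranged from 0.69 to 0.81 in semen, 1.02 to 1.30 in seminal fluid and 0.66 to 0.85 in control queens with 1 library left out, and all passed. Its interaction ranged from 0.26, without Experiment 2 seminal fluid replicate B, to 0.55 and its seminal fluid against semen difference in Experiment 2 from 0.14 to 0.34. The log2 ratio difference of the genes between experiments ranged from 1.02 to 1.12. A replicate block changed no call of either gene: the otoferlin-like difference in Experiment 2 was 0.26 with the block, and its difference between experiments in semen queens was 0.75.

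The number of genes called moved more widely. Seminal fluid against semen in Experiment 2 gave 1 gene with edgeR, 0 with upper quartile scaling, library totals alone or all 18 libraries in the fit, 4 with the replicate block, 831 with DESeq2 and 92 without semen replicate B. The same comparison in Experiment 1 gave 0 genes, and 1 with DESeq2 or without seminal fluid replicate A. The interaction gave 0 with edgeR, 1 with only the compared libraries, 318 with DESeq2 and 1082 without Experiment 1 semen replicate A, and neither gene passed under any of these. With 3 pools a group, differences near the standard error could not be resolved.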
